A study of Homo sapiens with 37 samples.

Results

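Transcripts of 10 integrin subunits were followed in 37 bulk libraries of K562, an established human erythroleukemia cell line. The members were taken by symbol, 7 alpha subunits (ITGAM, ITGA2B, ITGA4, ITGA5, ITGA6, ITGAE and ITGAV) and 3 beta subunits (ITGB1, ITGB3 and ITGB5), and all 10 had a row among the 32055 genes counted. In 26 libraries labelled KO, the transcription factor ZBTB7A had been disrupted with Cas9 and 1 of 2 guide RNAs, and in 11 libraries labelled Control the cells had received the same vector with no guide. In the study's methods, single transfected cells were sorted and grown out. The labels identify a library by its well barcode and name neither clone, guide, day nor replicate number. Each library counted as a separate sample of its group, so p-values measure only the spread between these libraries, which may be technical or come from shared clones.

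Each value is a count of unique molecular identifiers (UMIs), that is, of captured 3′ ends of polyadenylated transcripts. It does not depend on transcript length, but 3′ ends of different genes can differ in capture and mapping, as given below for ITGB1 and ITGB3. Comparisons of level between genes are therefore approximate. Levels are given as CPM, the counts scaled to library size after TMM normalization. Library totals ranged from 1070250 to 4270901 UMIs in KO and from 563235 to 4710809 in Control. A floor of 3 UMIs therefore stood for 0.713 to 2.78 CPM in KO and 0.655 to 5.41 CPM in Control. Values under this floor also appear below, in ranges, medians and UMI counts, and are uncertain. ZBTB7A itself did not separate the groups in these 3′ counts, which do not show edits of the coding sequence (log2 fold change 0.12, SE 0.09, edgeR quasi-likelihood adjusted p = 0.331). The libraries had the erythroid transcripts of this line, with the fetal globins HBG2 and HBG1, the transferrin receptor TFRC, the embryonic globin HBZ and the transcription factor GATA1 at the highest levels of the erythroid marker list. The monocyte marker CD14 had at most 2 UMIs in any library.

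Integrins are cell surface receptors made of one alpha and one beta chain, which bind extracellular matrix or ligands on other cells and link them to the cytoskeleton. The pair decides the ligand: alpha 5 with beta 1 binds fibronectin, alpha V pairs with several beta chains and binds vitronectin and related proteins, alpha 4 with beta 1 binds VCAM1 and fibronectin, and alpha 6 with beta 1 binds laminins. Other pairs belong to blood lineages, such as alpha IIb with beta 3 on megakaryocytes and platelets, alpha M with beta 2 on myeloid cells and alpha E with beta 7 on lymphocytes of epithelia. The counts measure transcripts in a whole culture, in which fewer expressing cells and less RNA per cell cannot be told apart, and they do not measure receptors on the surface.

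RefSeq windows on GRCh38.p14 from 250 bases before to 50 bases after the transcription start were at hand for 9 of the 10 genes. The 3 windows printed here belong to the members whose transcripts passed the adjusted p threshold between KO and Control, ITGAM (chr16:31259725-31260024, plus strand), ITGAV (chr2:186589806-186590105, plus strand) and ITGB5 (chr3:124887316-124887615, minus strand). Each reads 5′ to 3′, with every GC box (GGGCGG on either strand, hence also CCGCCC) in capitals.
ITGAM: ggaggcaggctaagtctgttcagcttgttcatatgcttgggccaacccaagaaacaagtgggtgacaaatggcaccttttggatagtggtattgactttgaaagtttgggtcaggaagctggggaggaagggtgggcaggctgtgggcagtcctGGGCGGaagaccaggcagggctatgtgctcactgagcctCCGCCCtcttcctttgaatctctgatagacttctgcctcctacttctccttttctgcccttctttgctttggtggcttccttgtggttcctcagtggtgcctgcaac
ITGAV: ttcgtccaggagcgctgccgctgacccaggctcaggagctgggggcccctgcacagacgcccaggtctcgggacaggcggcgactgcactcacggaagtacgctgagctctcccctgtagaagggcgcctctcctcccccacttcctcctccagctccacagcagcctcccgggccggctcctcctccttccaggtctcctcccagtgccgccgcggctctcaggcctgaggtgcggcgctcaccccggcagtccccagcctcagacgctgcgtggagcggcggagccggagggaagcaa
ITGB5: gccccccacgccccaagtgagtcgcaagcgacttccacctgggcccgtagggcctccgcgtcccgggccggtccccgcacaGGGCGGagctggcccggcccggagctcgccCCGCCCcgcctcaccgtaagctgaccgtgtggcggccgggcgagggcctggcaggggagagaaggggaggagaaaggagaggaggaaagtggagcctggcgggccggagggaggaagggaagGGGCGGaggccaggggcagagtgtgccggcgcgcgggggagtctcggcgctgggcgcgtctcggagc
The 3 windows are unlike each other in base composition. GC content was 53.3% for ITGAM, 70.7% for ITGAV and 75.7% for ITGB5, against a median of 58.7% over all 35116 windows. ITGB5 had 3 GC boxes, ITGAM had 2 and ITGAV had none, while 45.0% of all windows had at least 1 and 26.7% at least 2. A match to these letters is a description and does not show that a factor binds there.

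One alpha subunit stood far above the other members in both groups. ITGAE (ENSG00000083457, chromosome 17, 3714628 to 3801188, minus strand), the alpha chain of the epithelial lymphocyte integrin, ranged from 63.3 to 85.8 CPM in Control (median 79.5) and from 61.7 to 90.8 CPM in KO (median 76.0). Every library had ITGAE above the other 9 members. Below it, 4 members formed a middle tier in Control, with medians of 24.2 CPM for ITGB5, 21.8 for ITGA5, 20.5 for ITGAV and 14.8 for ITGB1. Ranges of neighbours in this tier overlapped in Control, and so did those in KO, where the order of the medians was ITGB5 (36.8 CPM), ITGAV (24.9), ITGA5 (20.3) and ITGB1 (17.2). The other 5 members, ITGAM, ITGA2B, ITGA4, ITGA6 and ITGB3, had Control medians of 1.80 CPM or less.

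The sum over the 10 members ranged from 139 to 182 CPM in Control (median 160.0) and from 155 to 214 CPM in KO (median 184). ITGAE held a median share of 47.8% of this sum in Control and 39.3% in KO, and ITGB5 held 14.7% and 19.1%.

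The question put to all 10 members was whether their transcripts differed between KO and Control. The edgeR filter on low counts left 6 members, and 2 of these 6, ITGB5 and ITGAM, were called higher in KO. A call required an adjusted p below 0.05 together with a log2 fold change beyond 0.5 in either direction. Over all 10661 genes tested, the same rule called 10.2%, 6.65% as higher and 3.53% as lower. At an adjusted p below 0.05 whatever the fold change, ITGAV was also higher, making 3 of 6 members where 33.8% of all genes passed. ITGAM passed the filter only through KO libraries, where it is high, so its place in these counts is no support. Without it, the counts were 1 of 5 called and 2 of 5 past the adjusted p threshold. With so few members, these shares are a description of the members and not a result about integrins as a family. KO and Control libraries overlapped for each of the 10 members, and 0.281% of all tested genes had groups without overlap.

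Among the beta chains, ITGB5 (ENSG00000082781, chromosome 3, 124761948 to 124901418, minus strand), a partner of alpha V only, rose in KO. Control libraries had 12.6 to 32.6 CPM with a median of 24.2 (7 to 132 UMIs), and KO libraries had 20.96 to 56.5 CPM with a median of 36.8 (39 to 127 UMIs). The groups overlapped, but 18 of 26 KO libraries exceeded the highest Control and 5 of 11 Control libraries lay below the lowest KO. The change was 1.47-fold with a 95% interval of 1.23 to 1.74 (log2 fold change 0.55, SE 0.12, adjusted p = 0.000621). Among libraries with AT-rich barcodes, 12 KO and 8 Control, it was 0.58 on the log2 scale (adjusted p = 0.00312). It fell just under the fold limit, at 0.48 with an adjusted p of 0.0104, when all libraries were thinned to the smallest total.

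ITGAV (ENSG00000138448, chromosome 2, 186590010 to 186680901, plus strand), the alpha V chain, passed the adjusted p threshold but not the fold limit. Its levels were 12.6 to 25.6 CPM in Control (median 20.5, 8 to 100 UMIs) and 18.03 to 36.0 CPM in KO (median 24.9, 26 to 132 UMIs). Of the KO libraries, 11 were above the highest Control, and 5 Control libraries were below the lowest KO. The log2 fold change was 0.40 (SE 0.10, 95% interval 0.18 to 0.61, adjusted p = 0.00305), a 1.32-fold difference. With barcode class as a covariate it was 0.32 (adjusted p = 0.0241), and among AT-rich barcodes 0.39 (adjusted p = 0.0304). After thinning, ITGAV passed both limits at 0.53 (adjusted p = 0.0126), where ITGB5 did not. Whether ITGB5 and ITGAV differ in their change was not tested.

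ITGAM (ENSG00000169896, chromosome 16, 31259967 to 31332892, plus strand), the alpha M chain of the myeloid integrin also known as CD11b, rose in KO from a very low level. The Control libraries had 1 to 14 UMIs each, or 0.512 to 3.06 CPM with a median of 1.69. KO libraries had 0 to 34 UMIs, or 0 to 9.16 CPM with a median of 3.34. ITGAM was above the highest Control in 15 of 26 KO libraries, some of them on few UMIs, such as CCCTGG (5 UMIs, 3.49 CPM) and GGCCAC (6 UMIs, 3.14 CPM). The shallowest KO library (CGTGGG) had 0 UMIs, where 3 UMIs would be 2.78 CPM, so it cannot be placed against the Control libraries. Nor can the shallowest Control library (GTTTAT) be placed, with 1 UMI where 3 UMIs would be 5.41 CPM. The change was 2.35-fold with an interval of 1.51 to 3.68 (log2 fold change 1.23, SE 0.32, adjusted p = 0.00248). ITGAM passed the filter through the KO libraries in which it was high, and it was no longer tested in 11 of the 37 fits that left out 1 library. With no filter the log2 fold change was 1.22 (adjusted p = 0.00628), and among AT-rich barcodes with no filter, an alternative chosen after seeing the data, 1.29 (adjusted p = 0.00317). Thinned to the smallest total with no filter, another such alternative, it was 1.21 and did not pass (adjusted p = 0.0688).

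Myeloid markers were read beside ITGAM. Of 15 monocyte and granulocyte markers, 12 were in the table, and the only one tested, the myeloid surface lectin CD33, fell by 0.66 on the log2 scale (adjusted p = 3.88e-08). The summed level of the list ran from 50.05 to 103 CPM in KO and from 84.8 to 118 CPM in Control. Most of this sum was CD33, at a mean of 69 CPM, before CSF3R at 3.32 CPM. The sum therefore repeats the CD33 values and is not a second result. The part of myeloid features in the ITGAM level was not tested.

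For the remaining tested members no difference passed the threshold. ITGA5 (ENSG00000161638, chromosome 12, 54395261 to 54419266, minus strand), the alpha chain of the fibronectin receptor, had 12.8 to 27.6 CPM in Control (median 21.8) and 12.3 to 36.5 CPM in KO (median 20.3). The KO range reached past the Control range at both ends, with 7 libraries above and 2 below it. The log2 fold change was 0.02 (SE 0.14), with an interval from -0.26 to 0.30 and an adjusted p of 0.941. The last exon of ITGA5 overlaps GPR84-AS1 on the opposite strand (150 UMIs over all KO libraries and 70 over all Control libraries), and without the strand setting of the counting their reads cannot be told apart.

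ITGB1 (ENSG00000150093, chromosome 10, 32887273 to 33005792, minus strand), the beta chain shared by most matrix-binding integrins, had 3.61 to 19.9 CPM in Control (median 14.8) and 10.5 to 21 CPM in KO (median 17.2). The lowest Control value came from the shallowest library, GTTTAT, with 2 UMIs. The log2 fold change was 0.17 (SE 0.10), with an interval from -0.04 to 0.38 and an adjusted p of 0.194. The last 500 bases of its canonical transcript matched chr19:14622868-14623288, within ADGRE3, over 421 bases at 100% identity, so ITGB1 reads could be split between loci and its level is uncertain.

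ITGAE had a log2 fold change of -0.03 (SE 0.05), with an interval from -0.14 to 0.07 and an adjusted p of 0.663. Of the 6 tested members it had the narrowest interval, 0.906 to 1.05 on the fold scale, and the most UMIs, 47 to 393 in the Control libraries and 75 to 337 in the KO libraries.

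The 4 members under the filter were counted by UMIs. ITGA2B (ENSG00000005961, chromosome 17, 44372180 to 44389649, minus strand), the megakaryocyte chain alpha IIb, had 0 to 19 UMIs in Control (0 to 6.07 CPM, median 1.80) and 0 to 41 UMIs in KO (0 to 23.5 CPM, median 1.84). The medians were close, but 6 KO libraries were above the highest Control: ATCAAA at 23.5 CPM, ATTACT at 17.1, CCCTGG at 16.8, TGTTTA at 15.7, TAAGAT at 9.73 and TTAGTT at 8.36. Mean log2 CPM was 0.68 higher in KO, which did not pass a two-sided permutation test with 100000 resamples (p = 0.113).

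ITGA4 (ENSG00000115232, chromosome 2, 181457202 to 181538940, plus strand), the alpha 4 chain, had no UMI in 14 of 26 KO libraries and in 3 of 11 Control libraries. Control libraries had at most 4 UMIs, and the highest Control level was 1.74 CPM (CGGTGG, 3 UMIs). Above both were 4 KO libraries, AAAACT with 20 UMIs (4.91 CPM), AATACA with 13 (4.23 CPM), AAATTG with 15 (4.09 CPM) and CTGCGG with 8 (3.65 CPM). The difference of mean log2 CPM was -0.08 by the same permutation test (p = 0.782), but the edgeR fit with no filter gave a log2 fold change of 0.73 (adjusted p = 0.561), so no direction is read. The last exon of ITGA4 overlaps CERKL on the opposite strand, which had 155 UMIs over all KO libraries and 44 over all Control libraries, and the strand setting of the counting is not given in the sources used here.

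ITGA6 (ENSG00000091409, chromosome 2, 172427354 to 172506459, plus strand), the laminin-binding alpha 6 chain, had 27 UMIs over all KO libraries and 16 over all Control libraries, with at most 5 in any library. ITGB3 (ENSG00000259207, chromosome 17, 47253827 to 47313743, plus strand), the partner of alpha IIb and alpha V, had 9 UMIs over all KO libraries and 1 over all Control libraries. For both, a difference between the groups was not detectable at this depth. The ITGB3 end is also uncertain, since its last 500 bases hold a repeat and its last exon overlaps the readthrough gene ENSG00000259753 on the same strand, which had 29 UMIs in KO and 16 in Control.

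The alpha-beta pairs that these levels allow were described by the scarcer of the 2 transcripts in each library, with no test. For alpha V with beta 5, the scarcer transcript ranged from 12.6 to 23.4 CPM in Control (median 17.7) and from 18.03 to 36.0 CPM in KO (median 23.4). ITGB5 was above ITGAV in 22 of 26 KO libraries and in 6 of 11 Control libraries. The ratio of ITGAV to ITGB5 UMIs had a median of 0.774 in KO (0.485 to 1.29) and 0.872 in Control (0.420 to 1.76), so the ratios of the groups overlapped.

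Alpha 5 with beta 1 and alpha V with beta 1 had 3 or more UMIs of both transcripts in all 26 KO libraries and in 10 of 11 Control libraries, the exception being GTTTAT. ITGB1 was the scarcer of each pair by count in most libraries, but its level is uncertain because of the matching stretch within ADGRE3. Which chain is the scarcer transcript in the cells is therefore not settled by these counts. For ITGA5 with ITGB1, the scarcer transcript ranged from 3.61 to 19.9 CPM in Control (median 14.8) and from 10.5 to 20.2 CPM in KO (median 15.5). ITGA5 was above ITGB1 in all 11 Control libraries and in 18 of 26 KO libraries. For ITGAV with ITGB1, the medians were 14.3 CPM in Control and 17.2 CPM in KO, and ITGAV was the higher of the 2 in 9 of 11 and 25 of 26 libraries.

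ITGA1, another alpha partner of ITGB1 that is not among the members, had medians of 43.3 CPM in Control and 39.0 CPM in KO, above those of ITGAV and ITGA5, in a locus that also holds PELO. Within the members that pair with ITGB1, ITGAV held a median of 52.8% of the CPM in KO and 43.7% in Control, while ITGA5 held 43.9% and 52.8%. Within the beta partners of ITGAV among the members, ITGB5 held a median of 68.2% in KO and 62.8% in Control, ITGB1 31.8% and 37.2%, and ITGB3 0% in both. These beta shares depend on the ITGB1 and ITGB3 counts, whose 3′ ends are uncertain as given above. The median order of ITGAV and ITGA5 thus differed between the groups, but the ranges of the ITGAV share, 39.8% to 65.3% in KO and 33.3% to 63.8% in Control, overlapped.

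The lineage pairs were short of a beta chain. ITGB3 and ITGA2B were both seen in 7 KO libraries and 1 Control library, with 3 or more UMIs of both in 0 libraries of either group. ITGB2, the leukocyte beta chain that pairs with alpha M, had 63 UMIs over all KO libraries and 30 over all Control libraries, and 3 or more UMIs of both ITGAM and ITGB2 were found in 13 KO and 3 Control libraries. ITGB7, the known partner of ITGAE, had 3 UMIs in all KO libraries together and 3 in all Control libraries together. ITGAE, the most abundant of the 10 transcripts, thus had its partner at or near 0 in every library.

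KO libraries with the highest levels were not the same for each member. These comparisons of libraries were chosen after their values were seen and are a description only. The 15 KO libraries above the highest Control for ITGAM and the 18 for ITGB5 had 9 in common, and the 11 for ITGAV had 8 in common with those 18. The 5 lowest KO libraries for ITGB5 (20.96 to 27.1 CPM) all had ITGAM at 6.18 CPM or more. The 6 KO libraries with ITGA2B above Control and the 4 with ITGA4 above Control had 0 in common, and 2 of those 4 were among the 11 for ITGAV. ITGB5 and ITGAV, though both higher in KO, had a Pearson r of 0.01 over the 37 libraries after each group's mean was subtracted, and ITGA5 and ITGB1 had an r of -0.01.

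**Figure D1:**
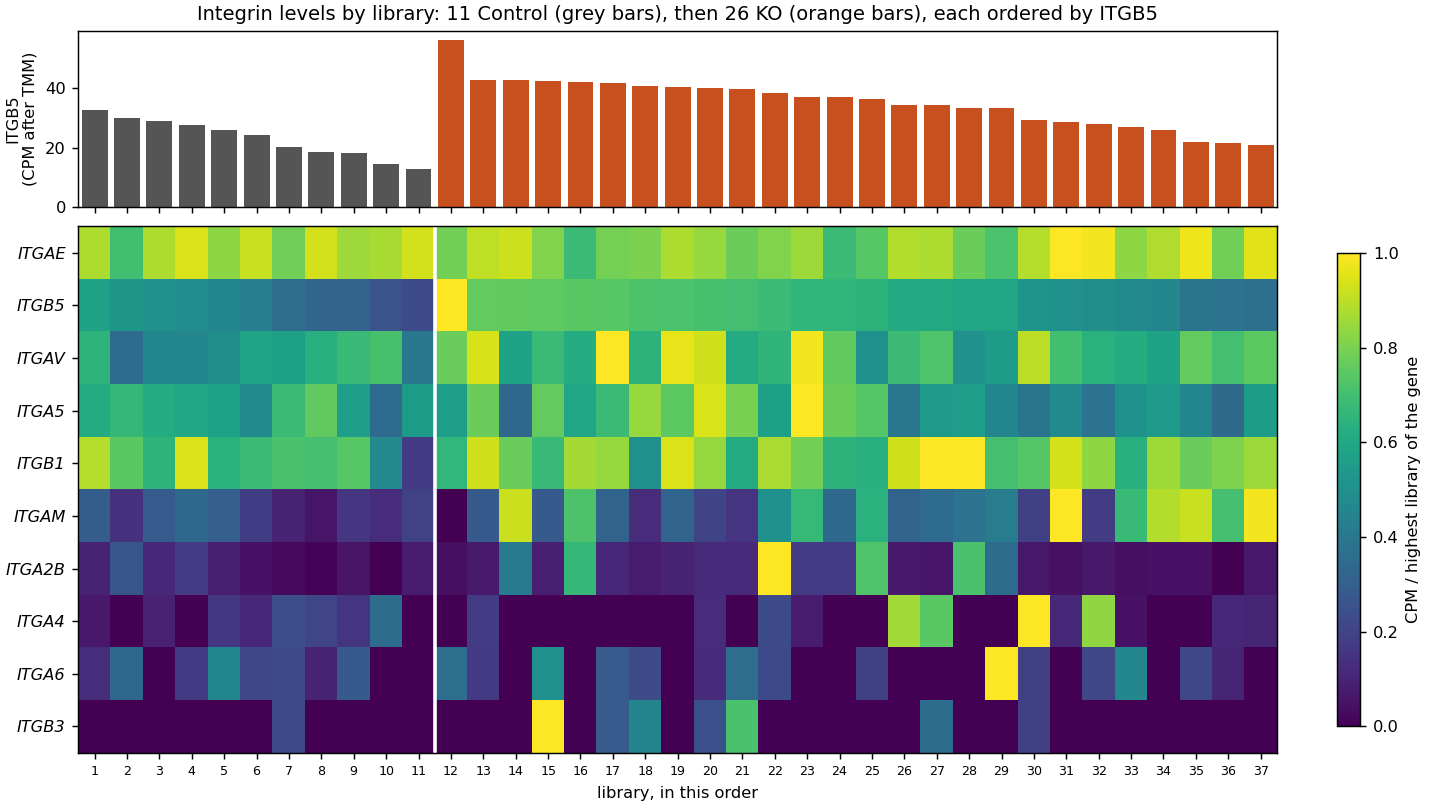
Level of each of the 10 members in each library as a share of the gene's highest library (colour scale from 0 to 1), with 11 Control libraries on the left and 26 KO libraries on the right, each ordered by ITGB5, whose CPM after TMM the upper bars show. The KO libraries at the low end of ITGB5 (20.96 to 27.1 CPM) have ITGAM at 6.18 CPM or more, and the few libraries with high ITGA4 are not those with high ITGA2B.

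One library labelled KO, GGCCAC, lay within the Control range for many genes that otherwise separated the groups. For 138 genes, all KO libraries but 1 lay on one side of every Control library, and in 127 of these GGCCAC was the exception. Among the members it was above the highest Control for ITGAV (27.2 CPM), ITGB5 (37.1 CPM), ITGA5 (28.2 CPM) and ITGAM (3.14 CPM), and it had the lowest ITGAE of KO (61.7 CPM). Without it the log2 fold changes were 1.25 for ITGAM, 0.39 for ITGAV and 0.55 for ITGB5.

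For each tested member, the 3 genes with the most similar pattern were taken by Pearson r of log2 CPM over the 37 libraries after each group's mean was subtracted, among genes that averaged 10 CPM or more. ITGB5 was most like OR8B5P (r = 0.858), TANC1 (0.856) and CD52 (0.845), and ITGAV was most like DNAJC10 (0.848), SMYD3 (0.754) and PTGER3 (0.738). ITGA5 was nearest to BHLHE40 (0.796), SERPINB9 (0.792) and ASNS (0.787), and ITGAM to HBD (0.763), EZR (0.742) and IGF1R (0.736). For ITGAE these were NDUFB9 (0.720), PSMA4 (0.712) and NDUFB7 (0.711), and for ITGB1 they were ENSG00000261353 (0.748), DYNC1LI2 (0.730) and CCDC186 (0.729). The libraries share a depth and a possible clone across genes, so these values describe likeness in these libraries alone.

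Ligands of integrins were listed beside the subunits. Of 40 listed ligands, 13 were tested, 7 were called higher and 1 lower in KO. Over all genes tested, 6.65% were called higher and 3.53% lower. The median log2 fold change of the 13 was 0.89, against -0.0046 over all genes tested. Laminin chains, the ligands of alpha 6 with beta 1, made up 5 of the 7. LAMC1 ranged from 3.06 to 7.79 CPM in Control and from 2.09 to 77.6 CPM in KO (log2 fold change 2.87, adjusted p = 7.10e-07), and LAMA3 from 0 to 1.53 CPM and from 1.68 to 9.59 CPM (2.61, adjusted p = 8.57e-09). LAMA3 passed the filter only through KO libraries, where it is high. LAMC1, with a Control median of 4.604 CPM, passed with the help of KO libraries in which it is high. So did THBS1, given below, with 2.885 to 14.85 CPM in Control. The calls of LAMA3, LAMC1 and THBS1 are therefore no support for the count or median of the ligands. LAMB1 (1.05, adjusted p = 7.83e-08), LAMA5 (0.89, adjusted p = 4.02e-08) and LAMB2 (0.57, adjusted p = 0.00152) rose by less.

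Ligands of alpha V integrins, and LTBP1 listed beside them, went in different directions. Thrombospondin 1 (THBS1) rose by 1.89 on the log2 scale (adjusted p = 5.46e-05). LTBP1, which holds latent TGF-beta in the matrix, rose by 1.03 (adjusted p = 3.60e-10), while TGFB1 itself was not called (0.39, adjusted p = 0.1165). Fibronectin (FN1), the ligand of alpha 5 with beta 1 and of alpha V integrins, fell by 1.07 (adjusted p = 0.00711). It ran from 7.49 to 38.1 CPM in Control (median 19.7) and from 0.580 to 30.4 CPM in KO (median 5.93), with 15 KO libraries below the lowest Control. Vitronectin (VTN) had no UMI in 35 of the 37 libraries.

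Of 36 intracellular activators and adaptors, 22 were tested, and 2 were called higher and 0 lower (median log2 fold change 0.08). Over all genes 6.65% were higher and 3.53% lower, and a count of 2 in 22 is near that share. At an adjusted p below 0.05 whatever the fold change, 7 of the 22 were higher and 0 lower. Of all genes, 17.7% were higher and 16.2% lower at that threshold. RASGRP2, the exchange factor that activates RAP1 upstream of integrins, ranged from 6.97 to 15.8 CPM in Control and from 9.94 to 33.3 CPM in KO (log2 fold change 1.13, adjusted p = 2.15e-09). PTK2B, a kinase related to focal adhesion kinase, was higher by 0.84 (adjusted p = 1.44e-05). For talin 1 (TLN1), which binds the beta tail, the log2 fold change was -0.10 (adjusted p = 0.547), and kindlin-3 (FERMT3), the kindlin of blood cells, was at most 11 UMIs and was not tested.

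Of 15 membrane partners, 12 were tested, 5 were higher and 1 lower (median 0.44), where 6.65% and 3.53% of all genes were. CAV1, the coat protein of caveolae, rose by 2.01 (adjusted p = 0.00299), with medians of 3.547 CPM in Control and 14.67 CPM in KO. It passed the filter with the help of KO libraries in which it is high, and so did TSPAN32, given next. The calls of CAV1 and TSPAN32 are therefore no support for the count of partners. Among the tetraspanins, TSPAN4 rose by 1.23 (adjusted p = 5.47e-09), TSPAN32 by 0.84 (adjusted p = 0.0252), CD9 by 0.77 (adjusted p = 0.000575) and CD63 by 0.52 (adjusted p = 0.000230). The leukocyte tetraspanin CD53 fell by 1.27 (adjusted p = 0.000811). Among the 16 other subunits of the family, 15 were in the table and ITGA1, a collagen-binding alpha chain whose locus also holds PELO, was the only one tested (log2 fold change -0.10, adjusted p = 0.241).

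Megakaryocyte genes were listed because alpha IIb and beta 3 are megakaryocyte integrins. Of 22, 8 were tested, 5 were higher and 2 lower in KO (median 0.70), beside 6.65% and 3.53% of all genes. GP1BA, a subunit of the von Willebrand factor receptor, ranged from 0 to 2.17 CPM in Control and from 0.523 to 42.9 CPM in KO (log2 fold change 3.35, adjusted p = 6.63e-05). It too passed the filter only through the KO libraries in which it is high. The thrombin receptor F2R (0.95, adjusted p = 3.53e-07) and MEIS1 (0.62, adjusted p = 0.0344) also rose, beside THBS1 and CD9 given above. MEIS1, with medians of 3.325 CPM in Control and 6.022 CPM in KO, passed the filter with the help of KO libraries. THBS1 passed in the same way, so the calls of GP1BA, MEIS1 and THBS1 are no support for the count of megakaryocyte genes. NFE2 fell by 0.52 (adjusted p = 1.41e-07) and the thrombin receptor F2RL3 fell by 1.67 (adjusted p = 3.60e-06). The summed level of the list was 267 to 425 CPM in KO and 321 to 422 CPM in Control. Its largest part was NFE2, at a mean of 194 CPM, before RUNX1 at 46.6 CPM. The part of these genes in the ITGA2B levels was not tested.

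Of the other marker lists, all 15 erythroid markers in the table were tested, with 3 called higher (SLC4A1, ALAS2 and EPOR) and 0 lower, beside 6.65% and 3.53% of all genes. SLC4A1 had medians of 2.02 CPM in Control and 4.268 CPM in KO. It passed the filter with the help of KO libraries in which it is high, so its call is no support for this count. Among the markers past the adjusted p threshold but not the fold limit, TFRC fell by 0.37, GATA1 by 0.19 and KLF1 by 0.22 on the log2 scale, while TAL1 rose by 0.39. The median of the list was -0.09. Erythroid markers had summed levels of 3152 to 10080 CPM in KO and 4319 to 9270 CPM in Control. Among lymphoid markers, 2 of 9 in the table were tested, PTPRC, which rose by 1.82 (adjusted p = 0.00152), and CD3D, which fell by 1.85 (adjusted p = 4.09e-06). Both were called, where 6.65% of all genes were called higher and 3.53% lower. The lymphoid list had summed levels of 9.77 to 168 CPM in KO and 26.02 to 91.9 CPM in Control. Of the adherent cell markers, 3 of 11 were tested and 1 was called, beside the same shares of all genes. This was EPCAM, which fell by 0.75 (adjusted p = 1.37e-08). KRT18, the highest of the list at a mean of 291 CPM, had a log2 fold change of 0.31 and was not called (adjusted p = 0.0858). CDH1, at -0.30, was not called either (adjusted p = 0.0582). Summed levels of that list were 327 to 553 CPM in KO and 404 to 593 CPM in Control.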

How the data were processed

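Bulk SCRB-seq libraries were sequenced from K562 cells. The authors mapped reads to hg38 with STAR (2.6.0a per the submitters' processing notes), used zUMIs with Ensembl GRCh38.84 genes, and deposited raw UMI counts per gene without normalization. Columns were matched to labels by barcode. GENCODE release 44 gave GRCh38 positions, and symbols for 31323 of 32055 identifiers.

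Counts were fitted with edgeR 4.0.16 under R 4.3.3 (default filter, TMM, robust quasi-likelihood, group as the only term) and adjusted by Benjamini-Hochberg over 10661 genes. Log2 CPM used a prior count of 2, and permutation tests used scipy 1.17.1. Transcript ends were compared with the genome by blastn 2.17.0. The fit was tested on simulated counts.

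The 10 members and all lists were chosen with earlier results of these data known. Named genes are the members, ITGB2 and ITGB7, the called genes of each list (at most 6, by size of change) with FN1, VTN, TLN1 and FERMT3, up to 5 genes of each marker list by level, and the 3 genes most like each tested member. The called ligands LAMA5 and LAMB2, CD14, ALAS2, EPOR, KLF1, TAL1 and SLC4A1 were named after their values were seen, as were ZBTB7A, ITGA1 and TGFB1. Alternatives were limma-voom (limma 3.58.1), DESeq2 1.42.0, RLE or library size scaling, other filters, barcode class (AT-rich up to 2 GC bases, mid 3, GC-rich more) as covariate or AT-rich alone, thinning, other thresholds, prior counts of 0.5 and 5, and leaving out each library. Intervals cover these libraries, and floors counting error only.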

Additional observations from a re-analysis of the deposited data

How the results depend on the processing

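The number of genes called between KO and Control was 1085 in the analysis reported. It was 1720 with no filter, 672 with a mean of at least 10 CPM, 595 after thinning, 3606 with no fold minimum and 340 at an adjusted p below 0.01 and a log2 fold change above 1. It ranged from 1044 to 1126 when each library was left out in turn. The number of members called was 2. It was 1 with a mean of at least 10 CPM (ITGB5), with AT-rich barcodes only (ITGB5), after thinning (ITGAV) and at the stricter thresholds (ITGAM), and 1 to 2 when each library was left out. ITGAM was below the filter in the first 3 of these alternatives and in the fits that gave 1. When the genes of the full filter were kept, an alternative chosen after seeing the data, its log2 fold change without each library ranged from 1.11 to 1.37, with adjusted p from 0.00120 to 0.00714.

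Limma-voom, DESeq2, library size alone, RLE size factors, barcode class as a covariate and no filter each called 2 members. The log2 fold changes of ITGAV ranged from 0.35 to 0.44 and those of ITGB5 from 0.51 to 0.61 when each library was left out. ITGA5, not called in any of these, changed sign with limma-voom (-0.067), with barcode class as a covariate (-0.038), with AT-rich barcodes only (-0.203) and across the fits that left out 1 library (-0.0243 to 0.0694). The negative values came without Control CGGTGG (-0.0243) or AAGATT (-0.00719) and without KO CCAACC (-0.0225), TAATGA (-0.0199) or CCGGAC (-0.00184). ITGAE, also not called, changed sign after thinning (0.0455). The cause of these changes was not tested beyond the filter named.

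No paired analysis was possible because the labels give no replicate numbers. GC-rich barcodes hold 12 KO libraries and 1 Control library, so no comparison was made within that class. At the depth of these libraries, levels of ITGA4, ITGA6 and ITGB3 rest on a few UMIs each, and their log2 CPM moved with the prior count.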
